A study of Mus musculus with 43 samples.

Results

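The dose response to SZ-A in visceral fat was read from 33 of the 43 RNA-seq libraries of the series. SZ-A stands for the alkaloids of mulberry twig, Ramulus Mori or Sangzhi in the title, which inhibit alpha-glucosidases in the gut. Every library holds RNA of epididymal white adipose tissue, the fat pad beside the epididymis, of male mice. The members were chosen by group and library number: all libraries of mice on a diet with 60% fat, at SZ-A doses of 0, 200, 400 and 600 mg/kg/day, except 3 that carried RNA of other tissue. The group without SZ-A (HFD) gave 10 libraries, and the doses of 200, 400 and 600 gave 9, 6 and 8. All these mice, the dose 0 group included, were on the high-fat diet. The labels give neither the strain, the age, the length of treatment nor the hour of tissue collection, and they do not tie libraries to animals. The levels of 7 libraries on a 10% fat diet (SD) are given where they help to place a value, and they entered the dose fits only in an alternative with 40 libraries.

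The 4 smallest p-values of the dose trend belonged to Arntl, Tef and Dbp of the circadian clock and to Hspa5, a chaperone of the endoplasmic reticulum (ER), so the workings of both are given first. In the clock, the activators BMAL1 (encoded by Arntl) and CLOCK or its paralog NPAS2 bind E-boxes and switch on Per and Cry genes, which then repress them, and Nr1d1 and Nr1d2, the REV-ERB nuclear receptors that repress Arntl. A further output is the PAR bZIP family of Dbp, Tef and Hlf, which activate genes through the D-box, a site that NFIL3 binds as a repressor. In fat this loop gives lipid handling a daily rhythm, and in a tissue taken once per animal a level cannot separate a change of amplitude from a change of phase. The ER chaperones, led by BiP (encoded by Hspa5), bind new secretory proteins and rise when unfolded proteins load the ER.

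The 33 libraries held between 33.4 and 44.3 (median 37.8) times 1e6 counts each. A level is a normalised CPM, that is, counts divided by the library total after TMM scaling and multiplied by 1e6. Libraries numbered 1 to 5 in their group (19 of the 33) differed widely from those numbered 6 and later (14): with dose in the fit, this term passed the test for 10962 of 19583 genes (56%). The labels do not explain the split, so it was a term in the fits below unless a sentence says otherwise, and each dose group holds libraries of both kinds. The adipocyte markers Adipoq, Plin1, Lep and Cidec were abundant in every member, the lowest value being 210 CPM. The macrophage marker Adgre1 ranged from 8.21 to 795 CPM, and the squamous marker Krt5 was at 0 in 30 of the 33 libraries. The 3 libraries left out, numbers 3 and 6 at 400 and number 6 at 600, held epithelial genes at levels far above those of the members. All 7 SD libraries were kept, though such RNA was present there too. Their summed ciliated epithelium genes had a median of 9.47 and a highest value of 885 CPM. For epididymal and vas deferens epithelium these were 4.8 and 112 CPM. Since the labels do not say that the samples of a group came from separate mice, p-values measure only the spread between these libraries.

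A straight line over dose was called for 4533 genes, 23.1% of those tested, at a Benjamini-Hochberg adjusted p under 0.05 in edgeR's quasi-likelihood test. Of these, 2053 rose with dose (10.5% of genes tested) and 2480 fell (12.7%). Counts of list members called in this fit, given below, are to be read beside these shares. A slope is given as log2 change per 200 mg/kg/day ± standard error, and the change over the whole range is 3 times the slope. Of the called genes, 1215 changed at least 2-fold over it, and the median slope of all genes tested was 0.0081. Against dose 0 alone, 88 genes differed at 200 (0.449%), 38 at 400 (0.194%) and 4439 at 600 (22.7%). The counts at single doses moved with single libraries: 25 of the 33 moved the count at 200 by over 1.5 times when left out, 8 that at 400 and 1 that at 600. At 200 the count ranged from 5 without library 5 of that dose to 474 without its library 7, and at 400 from 8 without library 8 to 143 without library 2 of that dose. At 600 it ranged from 2909 without library 3 of that dose to 6527 without library 8 of dose 0. The count of the line ranged from 3224 to 6556, within 1.5 times its value.

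Of the 4 genes of the PAR bZIP group, 3 rose with dose and the repressor fell (median slope 0.497). Dbp, an activator at the D-box (7:45354512-45359627 as the files give it), had 5.39, 11.6 and 14.5 CPM at dose 0, written here and below as the lowest, the median and the highest library. It had 9.91, 14.6 and 36.0 CPM at 200. At 400 it had 31.6, 41.0 and 43.1 CPM, and at 600 it had 32.7, 41.3 and 57.4 CPM. All 14 libraries at the upper doses lay above every library without SZ-A, and 5 of 9 did at 200. The slope was 0.67 ± 0.072 (adjusted p = 6.18e-07), a 4.01-fold rise over the range. The SD libraries had 5.40, 5.55 and 14.7 CPM, a range like that of dose 0 with a lower median, so all libraries at 400 and 600 lay above both diets.

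Tef, the second activator of the family (15:81686622-81711064), had 66.2, 82.1 and 126 CPM at dose 0 and 95.5, 120 and 162 CPM at 200. It had 119, 160 and 218 CPM at 400, and 154, 179 and 240 CPM at 600. Here all 8 libraries at 600 exceeded every dose 0 library, while 4 of 6 did at 400 and 3 of 9 at 200. Its slope was 0.38 ± 0.0389 (adjusted p = 2.05e-07). SD libraries had 104, 150 and 162 CPM of Tef, so the median at 600 was above their range and the lowest library at 600 within it. Hlf, the third activator, had medians of 3.95, 9.34, 11.6 and 15.2 CPM in order of dose and a slope of 0.61 ± 0.0979 (adjusted p = 3.07e-04), with every library at 400 and 600 above the highest at dose 0. Nfil3, the repressor at the same sites, went the other way. Its medians were 11.6, 10.2, 6.73 and 4.01 CPM, and its 8 libraries at 600, from 2.51 to 6.06 CPM, all lay below the lowest at dose 0, 7.79 CPM. The slope was -0.59 ± 0.0798 (adjusted p = 3.34e-05).

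**Figure D1:**
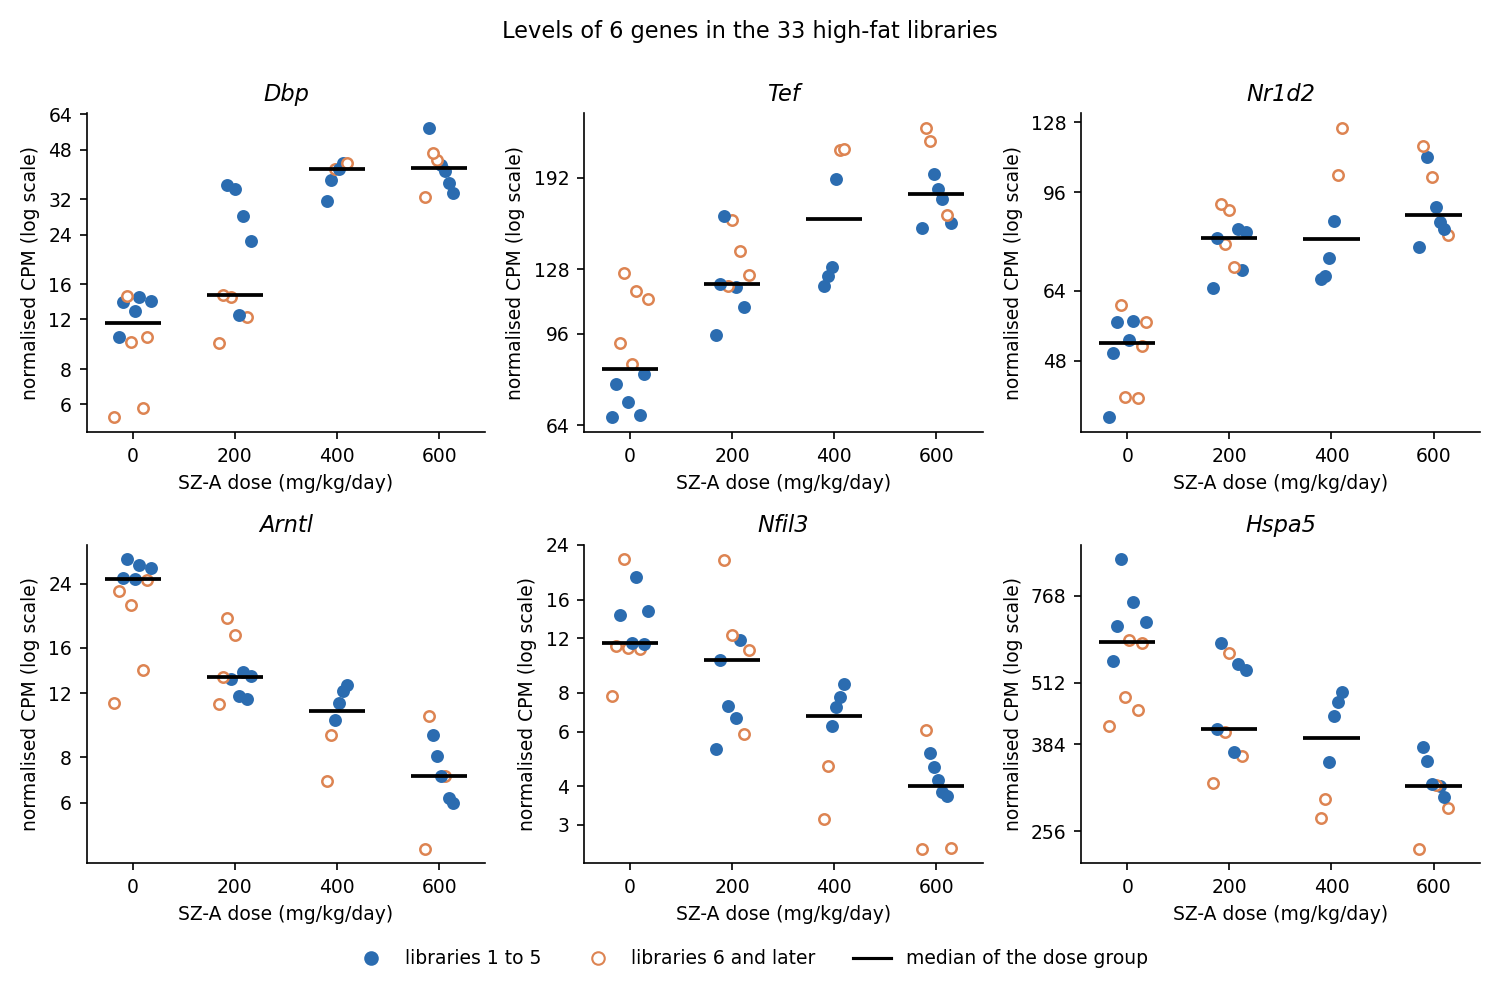
Normalised CPM on a log scale against SZ-A dose for Dbp, Tef, Nr1d2, Arntl, Nfil3 and Hspa5, with 1 point per library, filled for libraries 1 to 5 and open for later ones, and a bar at the median of each dose group. Dbp, Tef and Nr1d2 climb and Arntl, Nfil3 and Hspa5 descend, and for these 6 genes no library at 600 overlaps the range at dose 0.

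Among the 4 clock activators, 2 fell and 1 rose (median slope -0.269). Arntl, the gene of BMAL1 (7:112806672-112913333), had 11.3, 24.7 and 28.0 CPM at dose 0 and 11.2, 13.3 and 19.3 CPM at 200. It had 6.90, 10.7 and 12.6 CPM at 400, and 4.49, 7.13 and 10.4 CPM at 600. The median was lower at each higher dose, and the whole 600 group lay below the dose 0 range. The slope of -0.54 ± 0.0513 had the smallest p of all genes tested (adjusted p = 8.85e-08). SD libraries had 17.2, 22.0 and 27.0 CPM, like dose 0, so Arntl at 600 was below both diets. Npas2, which can stand in for CLOCK, had medians of 9.35, 4.43, 2.95 and 1.69 CPM and a slope of -0.62 ± 0.107 (adjusted p = 5.52e-04). Clock itself had medians of 71.1, 87.0, 70.8 and 75.3 CPM and a slope of 0.00 ± 0.0365 (adjusted p = 0.967). The paralog Arntl2 rose, from a median of 3.96 to 6.18 CPM (slope 0.35 ± 0.0564, adjusted p = 3.07e-04), a call that ended without the library-number term (adjusted p = 0.129).

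Of the 10 repressors of the loop, 5 rose and 0 fell (median slope 0.218). Nr1d2, which encodes REV-ERB beta, had 38.0, 51.6 and 60.3 CPM at dose 0. At 200 it had 64.8, 79.4 and 91.5 CPM, so that all 9 libraries of the lowest dose already lay above every library without SZ-A. At 400 and 600 the medians were 79.2 and 87.4 CPM. Its slope was 0.29 ± 0.0421 (adjusted p = 7.49e-05), and as a step with any SZ-A it had the smallest p of all genes tested (log2 change 0.78 ± 0.0945, adjusted p = 2.73e-05). Nr1d1, which encodes REV-ERB alpha, had medians of 69.1, 99.1, 113 and 152 CPM (slope 0.35 ± 0.0608, adjusted p = 5.46e-04). Per3, a period gene, had medians of 30.8, 40.8, 43.1 and 69.3 CPM (slope 0.48 ± 0.0602, adjusted p = 8.70e-06).

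The relatives of Per3 did not pass. Per1 had medians of 112, 84.4, 98.8 and 130 CPM (slope 0.11 ± 0.0917, adjusted p = 0.378) and Per2 of 28.1, 39.2, 33.3 and 39.9 CPM (slope 0.18 ± 0.085, adjusted p = 0.108). Both overlapped across all doses, and Per2 passed without library 8 of dose 0 (slope 0.23, adjusted p = 0.0237). Bhlhe41, a repressor at E-boxes, had a slope of 0.04 ± 0.0931 (adjusted p = 0.77), though it passed in the fit with a macrophage term given below. Ciart, which encodes the CLOCK-BMAL1 repressor CHRONO, rose from a median of 0.947 to 2.26 CPM (slope 0.53 ± 0.105, adjusted p = 0.00164), but 1 of 8 libraries at 600 exceeded the highest at dose 0 and the call ended without the library-number term (adjusted p = 0.172). Of 16 other genes tied to the clock, 3 rose and 4 fell. The cell-cycle kinase gene Wee1, a clock target, had a slope of -0.33 ± 0.0608 (adjusted p = 8.03e-04).

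RefSeq promoters, 250 bases before to 50 after the start on GRCm38.p6, matched 110 of the 179 genes for which levels were written out. They were searched on both strands for the E-box CACGTG, the D-box TTATGTAA or TTACGTAA, the ROR element by name, and the ER stress response element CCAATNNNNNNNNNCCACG. None of these overlaps another in the stretches printed. The 6 stretches below are shown because each belongs to a gene that followed dose and holds the site of its own pathway. The clock genes Per1 and Bhlhe41 also hold an E-box, and their slopes did not pass. Capitals mark the site, and each stretch is written 5′ to 3′ on the strand of the gene. Tef (chr15:81802516-81802581, + strand) and Ciart (chr3:95882237-95882374, - strand) carry E-boxes. Per3 (chr4:151044786-151044900, - strand) carries 2 D-boxes. Arntl (chr7:113207528-113207556, + strand, 17 to 45 bases after the start) carries a ROR element. Hspa5 (chr2:34771995-34772073, + strand) and Creld2 (chr15:88819490-88819568, + strand) carry the ER element, in Creld2 on the opposite strand.
Tef: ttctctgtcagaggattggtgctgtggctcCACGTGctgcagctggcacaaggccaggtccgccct
Ciart: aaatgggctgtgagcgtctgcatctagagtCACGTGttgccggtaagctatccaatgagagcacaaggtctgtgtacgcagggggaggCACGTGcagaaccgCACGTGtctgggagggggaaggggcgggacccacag
Per3: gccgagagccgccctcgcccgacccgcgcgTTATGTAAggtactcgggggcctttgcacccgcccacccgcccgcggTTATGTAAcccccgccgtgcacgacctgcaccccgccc
Arntl: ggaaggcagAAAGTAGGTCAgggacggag
Hspa5: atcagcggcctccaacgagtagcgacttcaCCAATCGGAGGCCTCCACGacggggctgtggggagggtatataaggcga
Creld2: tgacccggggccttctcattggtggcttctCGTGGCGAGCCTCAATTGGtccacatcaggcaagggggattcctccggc

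The same sites were counted over all promoters. An E-box stood in 10.2% of the 1407 promoters of genes that rose, in 11.9% of the 1894 of genes that fell and in 10.8% of the 12807 of all genes tested. For the D-box these shares were 0.853%, 0.686% and 0.968%, and for the ROR element 0.142%, 0.158% and 0.265%. The ER element stood in 0.213% of promoters of genes that rose, 0.475% of those that fell (9 genes) and 0.195% of all. Dbp, the gene with the largest rise of the clock group, holds none of the 4 sites in this window.

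Of 22 ER chaperones and folding enzymes, 17 fell with dose and 0 rose (median slope -0.139). Hspa5, the gene of BiP (2:34661982-34667559), had 419, 620 and 911 CPM at dose 0 and 320, 412 and 617 CPM at 200. It had 272, 396 and 491 CPM at 400, and 236, 317 and 379 CPM at 600. The 600 group lay entirely below dose 0, as did 5 of 9 libraries at 200 and 3 of 6 at 400. The slope was -0.34 ± 0.0392 (adjusted p = 2.88e-06), so that the level fell to 0.498 of that at dose 0. SD libraries had 222, 273 and 372 CPM, a range that the 600 group nearly matched. Manf, a secreted factor released by a stressed ER, had medians of 61.0, 44.1, 39.8 and 33.3 CPM (slope -0.32 ± 0.042, adjusted p = 1.67e-05). Creld2, an ER-resident partner of disulfide enzymes, had medians of 40.4, 29.9, 24.8 and 20.8 CPM (slope -0.33 ± 0.0453, adjusted p = 4.56e-05). For Creld2 every library at 600 was below every one at dose 0, and for Manf 7 of 8 were.

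Of the other members called, Sdf2l1, a partner of BiP, had the steepest slope of the list, -0.42 ± 0.0968 (adjusted p = 0.00414), with 1 of 8 libraries at 600 below the dose 0 range. Hyou1, a large ER chaperone, had a slope of -0.21 ± 0.036 (adjusted p = 5.52e-04) and Pdia4, a disulfide isomerase, of -0.10 ± 0.0203 (adjusted p = 0.00249). Of the 17 genes that sense ER stress or follow ATF4, 3 fell and 0 rose, beside 12.7% lower over all genes tested. One of them was Ddit3, which encodes the stress factor CHOP (slope -0.15 ± 0.0412, adjusted p = 0.0106). Glucosidase and glycan-trimming genes, the enzyme class that SZ-A alkaloids inhibit in the gut, were divided: of 13, 3 rose and 5 fell. Mogs, the first glucosidase of the ER, fell (slope -0.24 ± 0.0456, adjusted p = 0.0011), while the neutral glucosidase gene Ganc rose (slope 0.22 ± 0.0624, adjusted p = 0.0121).

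**Figure D2:**
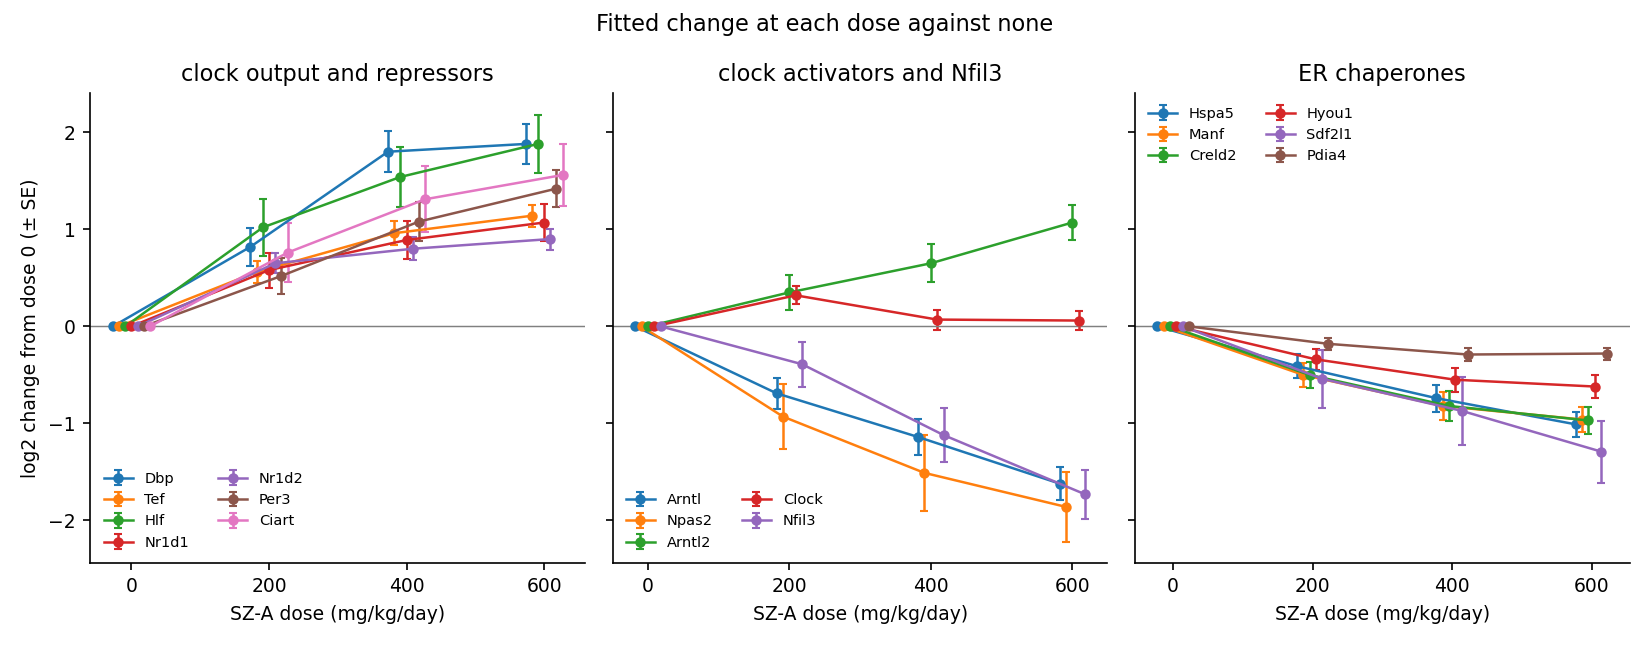
Fitted log2 change from dose 0 (± SE) at 200, 400 and 600 mg/kg/day, with points shifted sideways for legibility, for clock output and repressor genes, for clock activators with Nfil3, and for 6 ER chaperones. At 600 the clock outputs lie between 0.90 (Nr1d2) and 1.88 (Dbp, Hlf), Nfil3, Npas2 and Arntl at -1.62 (Arntl) or lower, and the chaperones between -0.28 (Pdia4) and -1.29 (Sdf2l1).

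Outside these groups, Cirbp, which encodes a cold-inducible RNA-binding protein, had 34.3, 41.4 and 48.5 CPM at dose 0 and 59.4, 67.2 and 82.0 CPM at 600, with no overlap (slope 0.27 ± 0.039, adjusted p = 5.99e-05). At 200 its median was 38.8 CPM, near that of dose 0. Snhg14, the long noncoding host transcript of small nucleolar RNAs, had medians of 1.74, 2.98, 2.50 and 6.03 CPM (slope 0.59 ± 0.0787, adjusted p = 2.85e-05). Banp, a chromatin-binding protein gene, had medians of 18.0, 13.7, 10.3 and 9.28 CPM (slope -0.35 ± 0.0414, adjusted p = 2.88e-06), and all libraries at 600 lay below those at dose 0. Alox12, the gene of a lipoxygenase, had medians of 1.45, 2.48, 4.16 and 4.53 CPM (slope 0.58 ± 0.101, adjusted p = 6.09e-04), and 7 of 9 libraries at 200 already exceeded dose 0. Ptx3, a secreted pattern-recognition protein of inflammation, had medians of 4.53, 2.33, 1.77 and 1.60 CPM (slope -0.56 ± 0.082, adjusted p = 9.34e-05).

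Among genes of low level, Kiss1r, the kisspeptin receptor, had medians of 3.19, 8.05, 9.25 and 21.7 CPM (slope 0.67 ± 0.127, adjusted p = 0.00111), with 1 dose 0 library at 18.3 CPM, inside the range at 600. Slitrk4, of a synaptic adhesion protein, had medians of 0.197, 0.561, 1.49 and 1.07 CPM (slope 0.68 ± 0.184, adjusted p = 0.0108). The 10 steepest falls were all immunoglobulin genes, whose near-identical copies share reads and whose values are therefore uncertain. Ighg1 had 0, 0.915 and 151 CPM at dose 0 and 0, 0.133 and 5.51 CPM at 600 (slope -1.77 ± 0.511, adjusted p = 0.0149). A few libraries carried these values: Jchain, a marker of antibody-secreting cells, stood at 347 CPM in library 4 of dose 0 and at 400 CPM in library 8 of 200, against a highest value of 19.3 CPM at 600 (slope -0.93 ± 0.327, adjusted p = 0.0393). Without library 4 of dose 0 the slope of Ighg1 was -0.43 (adjusted p = 0.631). The call of Jchain ended without any 1 of 11 libraries: 4 (slope -0.67, adjusted p = 0.194) or 7 at dose 0, 7 or 8 at 400, and 1, 2, 3, 4, 5, 7 or 9 at 600, with adjusted p from 0.0506 to 0.0656 for the other 10.

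The shape of the response was described with 3 curves of 1 term each. A saturating term, dose / (dose + 200), was called for 4343 genes (22.2%). A step that is full at the lowest dose was called for 2635 genes (13.5%), 1315 higher (6.72%) and 1320 lower (6.74%). The step count was 4832 without library 8 of dose 0 and 4477 without library 7 of 200, and it lay between 1440 and 1735 without library 1, 3, 4, 6 or 7 of dose 0. The line and the step shared 2199 genes, 48.5% of the first and 83.5% of the second. By residual deviance, of the 4533 genes that followed the line, 61% were closest to the line, 32.1% to the saturating curve and 6.86% to the step. The shares over all genes tested were 51.1%, 19.4% and 29.5%. The 4533 genes were chosen by the line in these same libraries, which favours the line in their shares, so the difference from all genes says nothing of shape. No gene was called as departing from a straight line with 2 degrees of freedom (0%; edgeR, 889 genes at an unadjusted p under 0.05, lowest adjusted p = 0.347), so these shapes are a description and no gene was shown to follow one curve rather than another.

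For genes that rose, the median log2 change was 0.316 at 200, 0.425 at 400 and 0.676 at 600, and for genes that fell -0.295, -0.422 and -0.679. Gene by gene, the change at 200 was 49.5% of that at 600 in the median of genes that rose and 44.3% in that of genes that fell, against 47.8% over all genes tested. The clock and ER genes spread around these values. Dbp had 43.6% of its change at 600 already at 200 and 95.5% at 400. Nr1d2 (log2 change 0.65, 0.80 and 0.90) and Rfx1, a transcription factor gene (-0.49, -0.53 and -0.66), had most of theirs at 200, and Rfx1 had the smallest step p of the genes that fell (adjusted p = 9.84e-05). At the other end, Cirbp had a change of 0.18 at 200 and 0.80 at 600.

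Whether levels went on moving above the lowest dose was tested by the slope within 200 to 600, and 6 genes passed (0.0306%), with 2543 at an unadjusted p under 0.05. Arntl fell by 0.47 ± 0.0825 (log2 per 200 mg/kg/day, adjusted p = 0.0265) and Nfil3 by 0.67 ± 0.125 (adjusted p = 0.0342). Rasl12, of a small GTPase, rose by 0.40 ± 0.0748 (adjusted p = 0.0342), with a log2 change from dose 0 of 0.02 at 200, 0.53 at 400 and 0.83 at 600. The noncoding RNA 2900052L18Rik, named after its values were seen, also rose. Dbp, Tef, Hspa5, Banp, Cirbp and Snhg14 each had an adjusted p = 0.0522 there. The count of 6 depended on single libraries. It was 0 without library 2, 7 or 8 at 200 or library 1, 7 or 9 at 600, 1 without library 1 at 200, and 2 without library 3 or 5 at 600. It was 10 without library 7 at 400, 11 without library 4 at 200, 18 without library 8 at dose 0, 19 without library 8 at 600, 27 without library 5 at 200 and 33 without library 9 at 200.

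Lists of dividing cells, matrix, macrophages and mature adipocytes were counted next. In bulk tissue, fewer cells of a type and less RNA per cell cannot be told apart. Of 30 cell-cycle genes 27 fell and 0 rose (median slope -0.514), and of 37 matrix genes 27 fell and 1 rose (median slope -0.307). Mki67, a marker of dividing cells, had 5.51, 73.8 and 92.7 CPM at dose 0 and 5.87, 12.8 and 31.0 CPM at 600 (slope -0.70 ± 0.161, adjusted p = 0.00429). Foxm1, the transcription factor of mitotic genes, had medians of 14.3, 6.81, 5.15 and 2.76 CPM (slope -0.65 ± 0.11, adjusted p = 5.01e-04). Among matrix genes, Col1a1 (fibrillar collagen) had medians of 1230, 548, 558 and 298 CPM (slope -0.62 ± 0.131, adjusted p = 0.00265). Fbn1 (fibrillin) had medians of 421, 256, 143 and 81.3 CPM (slope -0.68 ± 0.121, adjusted p = 6.69e-04), and Col6a2 (collagen VI) of 863, 502, 538 and 373 CPM (slope -0.41 ± 0.071, adjusted p = 6.41e-04). For both Mki67 and Fbn1, libraries 8 and 9 of dose 0 lay below the highest library at 600, and the other 8 dose 0 libraries lay above all of that group.

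Of 20 general macrophage genes 10 fell and 0 rose (median slope -0.364), and of 15 resident macrophage genes 6 fell and 0 rose. Adgre1, which encodes F4/80, had 8.21, 495 and 795 CPM at dose 0, and medians of 259, 219 and 101 CPM at the 3 doses (slope -0.58 ± 0.177, adjusted p = 0.0201). Cd68 had medians of 715, 354, 372 and 198 CPM (slope -0.36 ± 0.157, adjusted p = 0.0932), and it passed without library 8 of dose 0 (adjusted p = 0.0493). Folr2, of resident macrophages, had medians of 20.3, 6.91, 8.17 and 3.97 CPM (slope -0.62 ± 0.124, adjusted p = 0.00162). The 20 general macrophage genes summed to 1270, 9950 and 15500 CPM at dose 0 and to 1790, 3460 and 8250 CPM at 600, so the spread within dose 0 was wider than the difference of the medians. Some signals of inflammation moved the same way, though 19 of 25 cytokine and inflammasome genes and 13 of 22 interferon-response genes were not called. The other 6 and 9 fell, beside 12.7% of all genes tested, and 0 rose. Examples were Nlrp3, the inflammasome sensor (slope -0.57 ± 0.114, adjusted p = 0.00164), Ccl2, a monocyte chemokine (slope -0.57 ± 0.13, adjusted p = 0.00398), and Oas3, an antiviral enzyme (slope -0.52 ± 0.0969, adjusted p = 0.001).

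**Figure D3:**
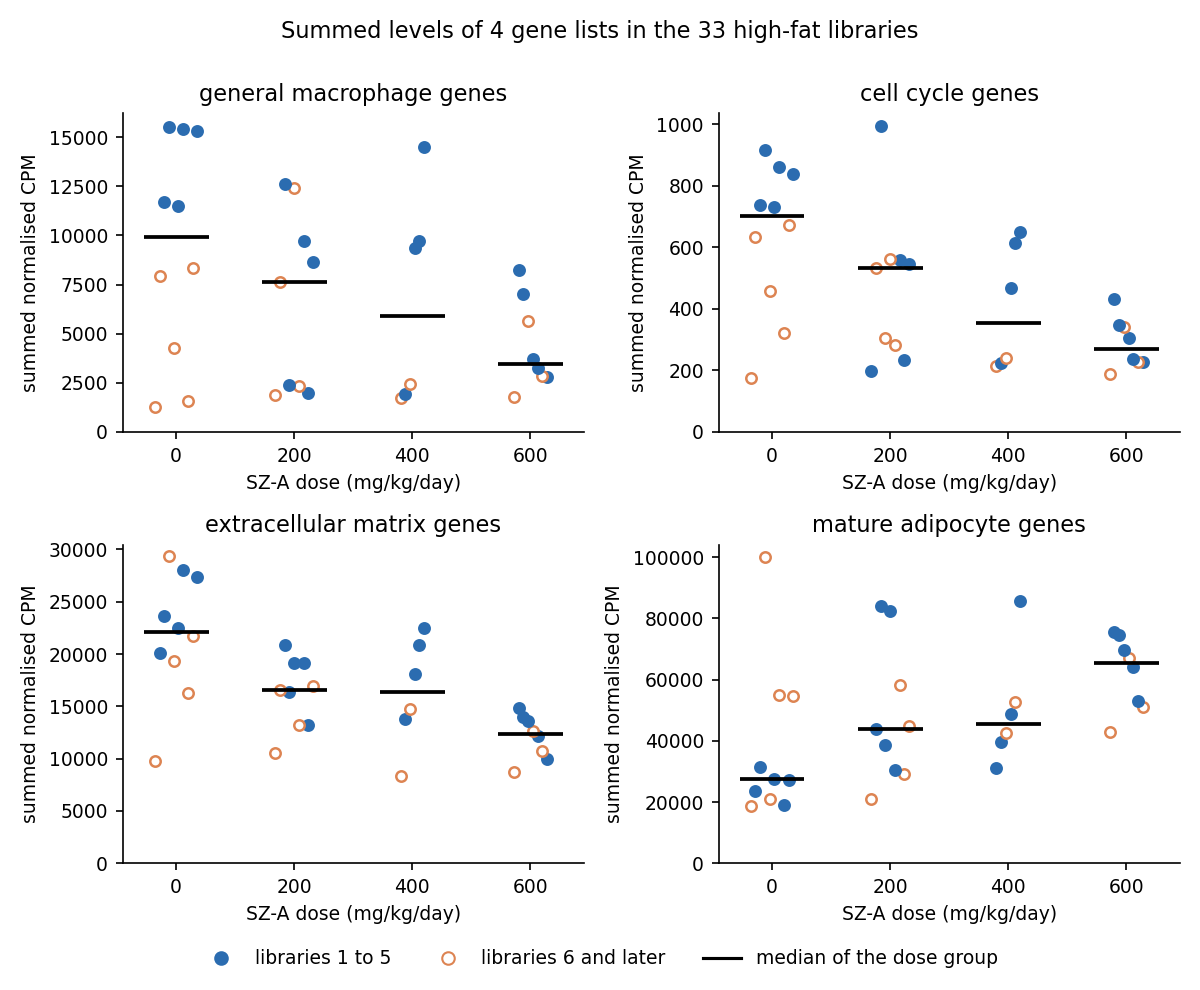
Summed normalised CPM of general macrophage, cell-cycle, extracellular matrix and mature adipocyte genes against SZ-A dose, 1 point per library, filled for libraries 1 to 5 and open for later ones, with the median of each dose group as a bar. At dose 0 the macrophage sum spans 1270 to 15500 CPM, and all 5 filled points lie above all open ones; medians fall from 9950 to 3460 CPM over the doses while the adipocyte median rises from 27400 to 65600 CPM.

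Of 20 mature adipocyte genes 7 rose and 0 fell (median slope 0.235), and of 22 genes of branched-chain amino acid breakdown 10 rose and 0 fell (median slope 0.189). Acvr1c, which encodes the activin receptor ALK7 of fat cells, had medians of 58.3, 115, 120 and 173 CPM (slope 0.46 ± 0.116, adjusted p = 0.00707). Plin1, the coat protein of lipid droplets, had medians of 872, 1460, 1700 and 1970 CPM (slope 0.27 ± 0.0764, adjusted p = 0.0124). Slc2a4, the insulin-responsive glucose transporter GLUT4, had medians of 67.5, 120, 123 and 166 CPM (slope 0.29 ± 0.0837, adjusted p = 0.0161). Dbt, a subunit of the branched-chain ketoacid dehydrogenase, had medians of 34.6, 56.8, 56.5 and 80.5 CPM (slope 0.30 ± 0.0694, adjusted p = 0.00481). Of 16 lipolysis genes 4 rose, among them Ffar2, a receptor for short-chain fatty acids (slope 0.32 ± 0.0677, adjusted p = 0.00227). In insulin signalling 5 of 21 genes rose and 3 fell, beside 10.5% and 12.7% of all genes tested. Irs1, the insulin receptor substrate, had a slope of 0.37 ± 0.0952 (adjusted p = 0.00812), and Socs3, a feedback inhibitor, of -0.35 ± 0.082 (adjusted p = 0.0047). Without the library-number term the calls of Acvr1c (adjusted p = 0.0881), Irs1 (adjusted p = 0.0862) and Ganc (adjusted p = 0.0541) ended.

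Other genes central to fat did not pass. Adipoq, the gene of adiponectin, had medians of 1510, 2260, 2480 and 3680 CPM (slope 0.26 ± 0.107, adjusted p = 0.0703); it passed without library 8 (adjusted p = 0.0115) or 9 (adjusted p = 0.0491) of dose 0, or library 1 (adjusted p = 0.0397) or 5 (adjusted p = 0.0378) of 200. Lep, of leptin, had medians of 1710, 1390, 2140 and 1280 CPM (slope -0.12 ± 0.0836, adjusted p = 0.277). The title names browning as an interest of the study. Ucp1, the uncoupling protein of thermogenic fat, had medians of 0.256, 0.168, 0.211 and 0.279 CPM (slope -0.11 ± 0.288, adjusted p = 0.794) and a highest value of 4.52 CPM in 1 library at 200. Of 20 thermogenic and browning genes 5 rose and 2 fell, beside 10.5% and 12.7% of all genes tested. Cytosolic ribosome genes gave 0 of 30 in either direction, and markers of mesothelium, T cells and red cells gave 0 of 10, 14 and 7.

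**Figure D4:**
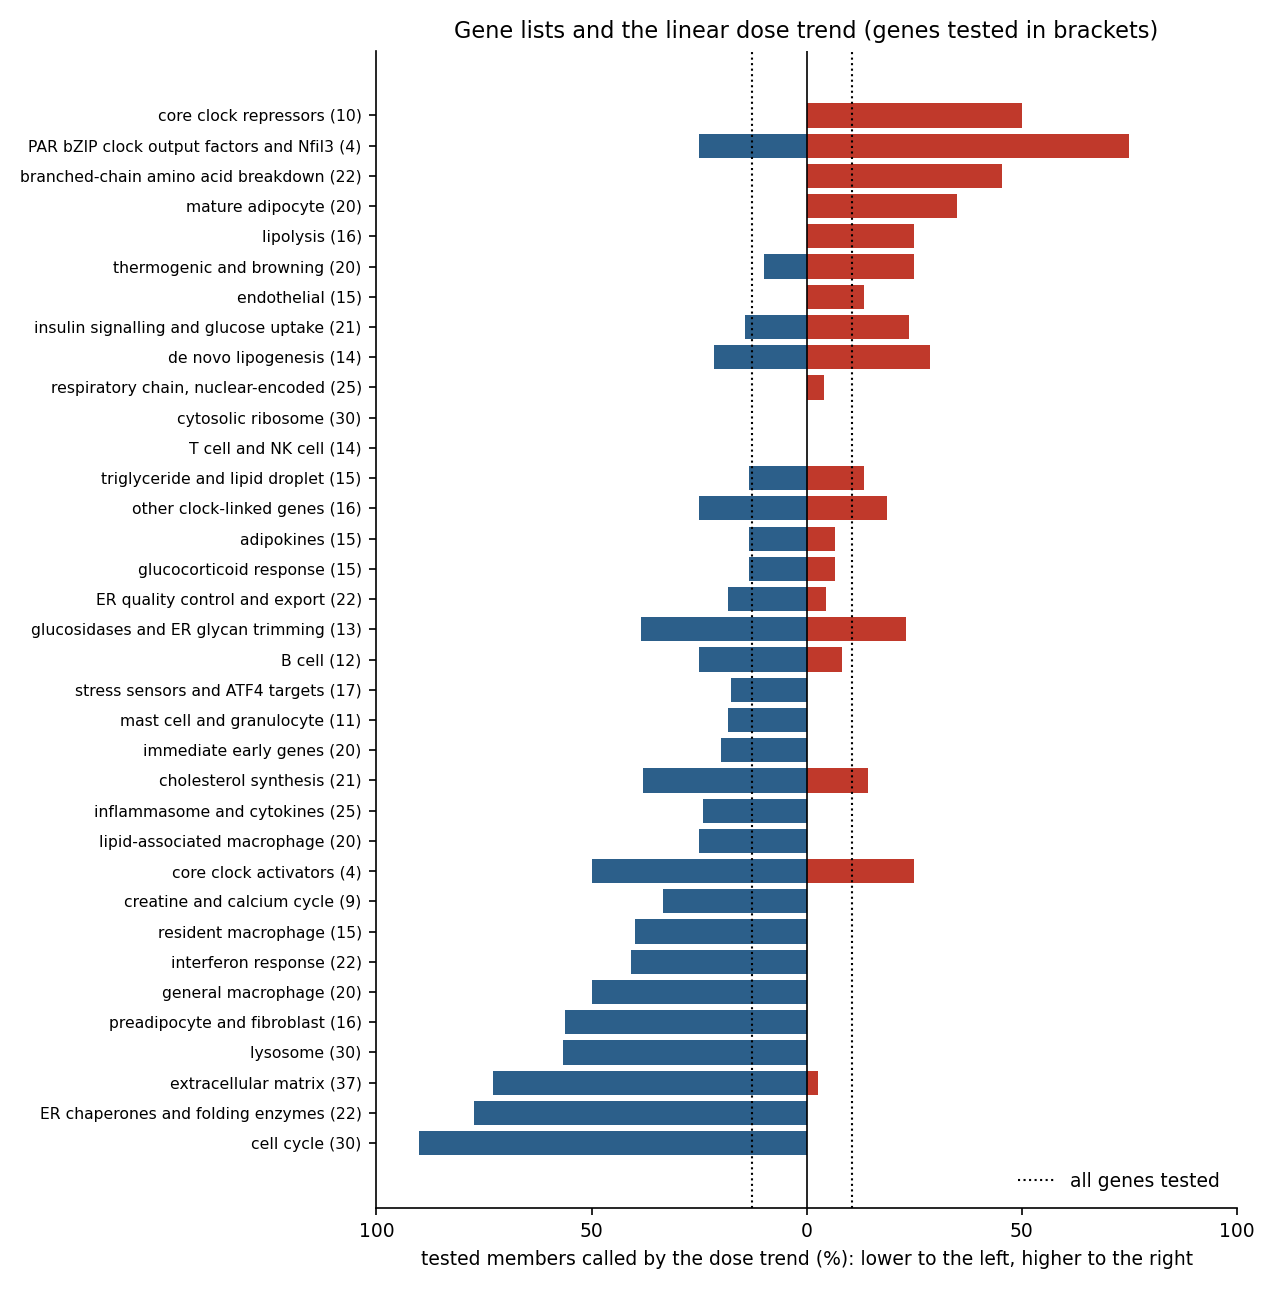
Share of each list's tested genes called by the linear dose trend, lower to the left in blue and higher to the right in red, with the number tested in brackets and dotted lines at the share of all genes tested (12.7% lower, 10.5% higher). Cell-cycle genes (27 of 30), ER chaperones (17 of 22) and matrix genes (27 of 37) lie farthest to the left, and the PAR bZIP group (3 of 4) and the clock repressors (5 of 10) reach farthest to the right.

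Summed macrophage genes moved with dose, so the trend was also fitted with the log2 of the summed macrophage genes as a term, which left 1908 genes, 865 higher (4.42% of genes tested) and 1043 lower (5.33%). With that term the clock repressors gave 6 higher and 0 lower, the PAR bZIP group its 3 and 1, the cell cycle 25 lower, matrix 21 lower and ER chaperones 11 lower. Lysosomal genes gave 7 lower, against 17 of 30 before, and thermogenic genes 1 higher. General macrophage genes make up the term, so their own slopes in that fit are not given. Dbp had a slope of 0.70 in that fit (adjusted p = 6.83e-07), Arntl of -0.47 (adjusted p = 7.29e-09) and Hspa5 of -0.27 (adjusted p = 1.27e-07). Bhlhe41, not called without the term, rose in that fit (slope 0.263, adjusted p = 8.15e-04). The calls of Irs1 (adjusted p = 0.0514), Slitrk4 (adjusted p = 0.0624) and Jchain (adjusted p = 0.239) ended. The part of other cell types in the trend was not tested.

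The 600 mg/kg/day libraries carried most of the calls. Without them the line over 0, 200 and 400 was called for 24 of 19040 genes (0.126%), 12 higher and 12 lower, and all 24 were among the 4533. They included the clock genes Dbp (slope 0.89, adjusted p = 2.64e-04), Tef (0.49, adjusted p = 4.02e-04), Arntl (-0.58, adjusted p = 0.00139), Nr1d2 (0.43, adjusted p = 0.00654) and Per3 (0.55, adjusted p = 0.0214). The ER chaperones Manf (-0.42, adjusted p = 0.0125), Hspa5 (-0.38, adjusted p = 0.0289) and Creld2 (-0.42, adjusted p = 0.0289) were also there, as were Alox12, Banp, Ptx3, Rfx1 and Slitrk4. The count of the line without the 600 libraries rests on 25 libraries.

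The trend was also fitted within each set of library numbers, which share no library. In order of dose, libraries 1 to 5 numbered 5, 5, 4 and 5, and the later ones 5, 4, 2 and 3. Libraries 1 to 5 called 5418 genes (29.4% of those tested) and libraries 6 and later 1 gene (0.00472%), Dbp, with a slope of 0.55 ± 0.084 in the first (adjusted p = 0.00124) and 0.81 ± 0.109 in the second (adjusted p = 0.0392). A direct test found no gene whose slope differed between the sets (0%; edgeR, 1062 genes at an unadjusted p under 0.05, lowest adjusted p = 0.733). Of 5410 genes called in libraries 1 to 5 and tested in the later ones, 4696 (86.8%) had the same sign there and 778 of those an unadjusted p under 0.05, against 3 of the other sign. All genes tested in both kept their sign in 72.8%. Genes called higher in the first set had a median slope of 0.264 there and 0.079 in the later libraries, and genes called lower -0.244 and -0.121.

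Several clock and ER genes had slopes of like size in both sets. Tef had 0.40 ± 0.052 and 0.36 ± 0.0603, Arntl -0.57 ± 0.0491 and -0.48 ± 0.101, and Hspa5 -0.35 ± 0.0481 and -0.32 ± 0.0689, each with an unadjusted p of at most 3.33e-04 in the later set. Mki67 had -0.71 ± 0.195 and -0.69 ± 0.259, and Col1a1 -0.59 ± 0.159 and -0.65 ± 0.211. Adipocyte slopes were larger in the first set: Adipoq had 0.45 ± 0.125 and 0.05 ± 0.158 and Slc2a4 0.43 ± 0.109 and 0.12 ± 0.108, and the difference had an adjusted p = 0.783 for both in the direct test. Ciart had 0.76 ± 0.101 and 0.17 ± 0.166 (adjusted p of the difference = 0.783). Per1 (0.26 ± 0.0972 and -0.1 ± 0.146) and Per2 (0.38 ± 0.0987 and -0.07 ± 0.106) changed sign between the sets, without passing the direct test. In the first set the dose 0 libraries had macrophage sums above those of every later dose 0 library, as the plot of summed levels shows.

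**Figure D5:**
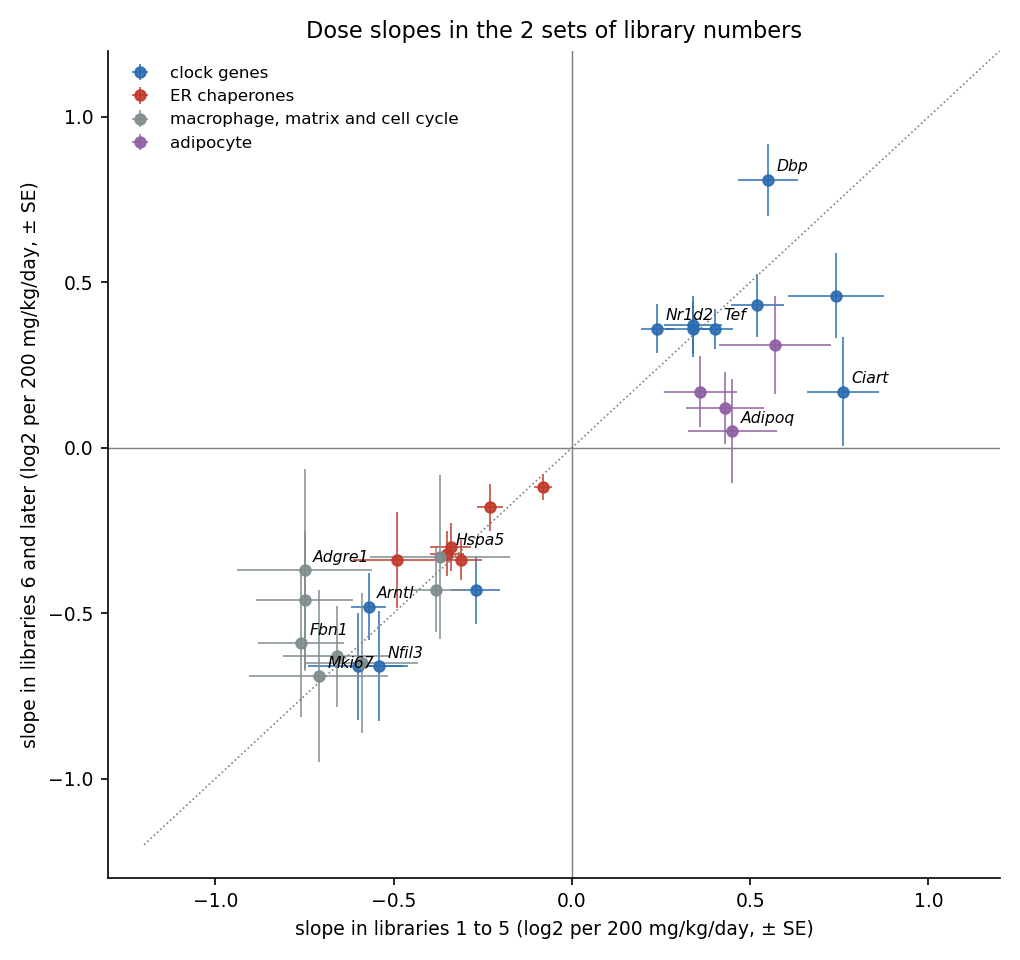
Dose slope (log2 per 200 mg/kg/day ± SE) in libraries 1 to 5 against that in libraries 6 and later for clock genes, ER chaperones, adipocyte genes and genes of macrophages, matrix and cell cycle, with a dotted line at equal slopes. Every plotted gene has the same sign in both sets. The clock genes Per1 (0.26 and -0.1) and Per2 (0.38 and -0.07), whose signs differ, are not plotted. Dbp (0.55 and 0.81) lies above the line of equality and Adipoq (0.45 and 0.05) far below it.

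The 3 libraries left out can be set beside these values, which come from fits without them. Library 3 and library 6 at 400 and library 6 at 600 had 41.7, 70.2 and 56.6 CPM of Dbp, all above the dose 0 range. They had 229, 171 and 238 CPM of Tef, again above it. Hspa5 stood at 271, 345 and 288 CPM, below every dose 0 library. Arntl stood at 12.1, 9.75 and 11.0 CPM, where the lowest dose 0 library had 11.3 CPM, so 1 of the 3 overlapped.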

How the data were processed

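Poly(A) RNA of 43 epididymal fat samples was sequenced as strand-specific paired-end libraries, per the labels' protocols. The authors deposited whole-number read counts per gene and FPKM values per gene for every library. The genome build is mm10, per the submitters' processing notes. Aligner, counting tool and strand setting were not given in the sources used here. Coordinates of genes are those in the files. They were not mixed with those of RefSeq promoters on GRCm38.p6, since 11% of 12807 genes on the same chromosome had a RefSeq start within 1000 bases of the gene in the files.

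Counts were analysed in R 4.3.3 with edgeR 4.0.16. TMM factors came from all 43 libraries, filterByExpr kept 19583 of 56748 genes, and robust quasi-likelihood F tests were adjusted by the Benjamini-Hochberg method, with calls at an adjusted p under 0.05. The fit over 33 libraries held dose in units of 200 mg/kg/day and a term for library numbers 6 and later. In place of the line, the same fit was made with a step, with dose / (dose + 200), with a separate slope among treated libraries and with doses as factors. A further fit held the interaction of dose and library number. No 2 libraries held identical values. Precision is limited by the spread between libraries.

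Alternatives were DESeq2 1.42.0, limma 3.58.1 on voom values and on log2(FPKM + 1) or log2(FPKM + 0.1) of the deposited FPKM, other scaling factors and filters, no library-number term, a term per replicate number, each set of library numbers alone, 36 or 40 libraries, each library left out, a macrophage term, and a threshold of 0.01. Fits without each treated dose were added after seeing the data. The edgeR fits of the line, the step, the slope among treated doses and the departure from a line were tested on simulated data. The other fits were not. The members, the gene lists and the naming rule were chosen with earlier results of these data known.

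Genes were named by this rule: Dbp, Tef and Hspa5 always, a fixed set of clock, ER, adipocyte, macrophage, cell-cycle and matrix genes, the 10 largest slopes and the 5 smallest p in each direction, the 5 smallest p of the other tests, and the 2 to 4 members of each list with the smallest p. Genes ranked by slope or p needed a mean of 1 CPM at dose 0 or 600 and 80% of the 600 libraries on their side of the dose 0 median, and symbols of predicted models were passed over. Some genes that the rule selects are not reported here. Plots used matplotlib 3.10.9 in Python 3.11.15.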

Additional observations from a re-analysis of the deposited data

Results flagged for a closer look

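For 60 genes of the text, the highest and the lowest library of each dose group were set against Dixon's 95% critical value. Chance passes it in about 1 of 20 groups of normally distributed values. It was passed in 29 of 240 groups (12.1%), for 18 genes and in 15 libraries. The CPM were not put on a log scale, and every library that passed was the highest of its group. The share of 12.1% can therefore not be read against 1 in 20. Antibody genes gave 10 of the 29. Ighg1 stood at 151 CPM in library 4 of dose 0, at 58.7 CPM in library 8 of 200, at 1.14 CPM in library 2 of 400 and at 5.51 CPM in library 3 of 600. Jchain stood at 347, 400 and 94.3 CPM in library 4 of dose 0, library 8 of 200 and library 5 of 400. Igkv12-44 stood at 26.4, 4.05 and 0.394 CPM in library 4 of dose 0, library 7 of 200 and library 8 of 600.

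Among clock genes, library 9 of 200 was the highest of its group for Nfil3 (21.5 CPM) and Per2 (77.2 CPM). Library 7 of 200 was the highest for Npas2 (9.66 CPM), Bhlhe41 (52.7 CPM), Hyou1 (132 CPM) and Rfx1 (34.2 CPM). Library 7 of 600 was the highest for Per2 (57.2 CPM) and Snhg14 (11.7 CPM). Bhlhe41 stood at 47.2 CPM in library 2 of 400 and Ciart at 3.35 CPM in library 7 of 400.

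Library 1 of 600 was the highest of its group for 3 ER stress genes, Creld2 (28.3 CPM), Sdf2l1 (42.8 CPM) and Ddit3 (19.6 CPM). At dose 0, library 10 was the highest for Socs3 (70.3 CPM) and Hsph1 (180 CPM), and library 2 for Ptx3 (12.6 CPM). Ucp1 reached 0.888 CPM in library 8 of dose 0, 4.52 CPM in library 4 of 200 and 1 CPM in library 7 of 400.

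The 3 libraries left out carried summed levels of other tissue that no member reached. Genes of ciliated epithelium summed to 1630 CPM in library 6 of 600, where the highest member had 28.1 CPM. Genes of epididymal and vas deferens epithelium summed to 22100 CPM in library 6 of 400 and to 111 CPM in library 6 of 600, against at most 20.6 CPM in the members. Squamous and sebaceous genes summed to 12600 CPM in library 3 of 400, against at most 1190 CPM.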

How the results depend on the processing

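The number of genes on the line stayed within 1.5 times 4533 under other scaling factors, filters, DESeq2, log2 FPKM, 36 or 40 libraries and leaving out any 1 library (3224 to 6556). It was 10584 with voom, 1753 without the library-number term, 1908 with the macrophage term, 1389 at an adjusted p under 0.01, 1 in libraries 6 and later and 24 without the 600 libraries. The step gave 9856 with voom, 510 without the library-number term, 5055 in libraries 1 to 5, 0 in later ones, and 1440 to 4832 leaving out 1 library. The slope among treated libraries gave 21 with at least 1 CPM in 6 libraries, 152 with DESeq2, 2167 with voom, 12 and 10 on log2(FPKM + 1) and log2(FPKM + 0.1), 3 without the library-number term, 3 in libraries 1 to 5, 0 in later ones, 1 with the 40 libraries, and 0 to 33 leaving out 1. Departure from a line gave 70 with the 36 high-fat libraries, and 0 leaving out any 1. The dose of 200 gave 4 without a filter, 138 with at least 1 CPM in 6 libraries, 5 without the library-number term, 453 in libraries 1 to 5, 0 in later ones, 7 with 36 and 7 with 40 libraries, and 5 to 474 leaving out 1. The dose of 400 gave 14 without the term, 6 in libraries 1 to 5, 0 in later ones, 898 with 36 and 16 with 40 libraries, and 8 to 143 leaving out 1. The dose of 600 gave 1598 without the term, 6721 in libraries 1 to 5, 0 in later ones, and 2909 to 6527 leaving out 1. With replicate number as a block the line gave 4300, the step 2786, the slope among treated 1, and the doses 1, 23 and 3980. With group means removed, the 43 pairs of same-numbered libraries from different doses had a median correlation of 0.252. It was -0.0883 (from -0.557 to 0.588) with the library-number term also removed. Whether libraries of the same number are paired was not tested. With the 36 libraries, Lcn2 (slope 0.74) and Tekt1 (slope 0.642) reversed. The cause of these moves was not tested.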

Other observations

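Chaperones outside the ER were examined after their values were seen. Of 19 heat shock genes of cytosol and mitochondria 8 fell with dose and 0 rose (median slope -0.101, against 0.0081 for all genes tested). Hsph1, a cytosolic chaperone of the HSP110 family, had medians of 70.7, 53.5, 47.0 and 37.5 CPM in order of dose (slope -0.40 ± 0.0647, adjusted p = 3.70e-04, edgeR), and all 8 libraries at 600 lay below every library at dose 0. Hspa8, the constitutive HSC70, had a slope of -0.26 ± 0.0468 (adjusted p = 6.96e-04), with 6 of 8 libraries at 600 below the dose 0 range. Of 2 cold-inducible RNA-binding proteins, Cirbp rose and Rbm3 had a slope of -0.08 (adjusted p = 0.173).

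Lists not described above gave these counts of genes called on the line, beside 10.5% higher and 12.7% lower over all genes tested. Lysosomal genes gave 17 of 30 lower, preadipocyte and fibroblast genes 9 of 16 lower, and lipid-associated macrophage genes 5 of 20 lower, each with 0 higher. Cholesterol synthesis gave 3 higher and 8 lower of 21, lipogenesis 4 and 3 of 14, and triglyceride and droplet genes 2 and 2 of 15. Adipokines gave 1 higher and 2 lower of 15, and nuclear-encoded respiratory chain genes 1 higher and 0 lower of 25. Immediate early genes gave 0 higher and 4 lower of 20, and glucocorticoid-response genes 1 and 2 of 15. Creatine and calcium cycle genes gave 0 and 3 of 9, and ER quality control 1 and 4 of 22. Of the cell type lists, B cell genes gave 1 higher and 3 lower of 12, mast cells and granulocytes 0 and 2 of 11, endothelium 2 and 0 of 15, smooth muscle 4 and 0 of 10, and skeletal muscle 1 and 0 of 8. Ciliated epithelium gave 0 higher and 1 lower of 8, squamous and sebaceous epithelium 1 and 1 of 7, and epididymal epithelium 0 of 3.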
